A study of Mus musculus with 16 samples.

Results

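Apoptosis genes of the Bcl2 family were examined for chromatin accessibility in mouse hematopoietic stem and progenitor cells (HSPCs) with and without p300 and Tet2. The 10 genes were 3 pro-survival members, Bcl2, Bcl2l1 and Mcl1, and 7 pro-death members, Bcl2l11, Bax, Bak1, Bbc3, Pmaip1, Bid and Bad. Accessible peaks of all 16 libraries were merged into 296215 regions, and 243 of them overlapped the body of a member or the 20 kb on either side of it in the GENCODE M21 annotation of mm10. Of these, 115 belonged to pro-survival and 128 to pro-death members, and 0 were shared between members.

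Proteins of this family decide whether the outer mitochondrial membrane stays intact. Bcl2, Bcl-xL (the product of Bcl2l1) and Mcl1 hold the membrane pore formers Bax and Bak (encoded by Bak1) in check, whereas the BH3-only proteins Bim (Bcl2l11), Puma (Bbc3), Noxa (Pmaip1), Bid and Bad bind the guardians or activate the pore formers. Blood stem cells depend on Mcl1 for survival, and Bcl2 is a drug target in acute myeloid leukemia.

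Chromatin was read by ATAC-seq, which marks DNA open to a transposase, with 4 libraries for each of 4 genotypes. WT mice carried floxed Ep300 alleles (Ep300 fl/fl) and no Cre, and P300KO mice were Mx1-Cre Ep300 fl/fl. TET2KO mice were Ep300 fl/fl Tet2-/-, and P300KO_TET2KO mice were Mx1-Cre Ep300 fl/fl Tet2-/-. All 4 groups were thus Ep300 fl/fl and received poly(I:C), which turns on the interferon-driven Mx1-Cre in many tissues and so is not limited to HSPCs. Each library came from HSPCs sorted from the bone marrow of 2 age-matched mice, frozen and thawed before the assay. By the study's methods mice received poly(I:C) at 6 to 8 weeks of age and were sampled 2 weeks later or at a time given for the experiment, and which of these holds for the ATAC-seq mice is not stated in the sources used here. Replicates 1 and 2 of every genotype carry a label naming a merged peak list, which replicates 3 and 4 lack, and the pairs are called deposit set 1 and deposit set 2.

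The lists held between 86039 and 110055 peaks in set 1 and between 130610 and 137335 in set 2, and they carry no read counts, so the depth of each library is unknown and an absent peak means that none was detected. In bulk libraries, fewer cells of a type and a weaker signal per cell cannot be told apart. The HSPC identity was checked on promoters of marker genes. All 5 HSPC markers (Kit, Ly6a, Cd34, Gata2 and Meis1) had a promoter peak in 16 of 16 libraries. Promoter peaks also lay in all 16 libraries at 2 of 3 B cell, 3 of 3 erythroid and 2 of 3 mature myeloid markers and at 0 of 2 T cell markers. Cd3e had one in 13 libraries, Cd4 in 12, Cd79a in 4 and Ly6g in 0. Promoter peaks at genes of other lineages thus do not separate HSPCs from those cells, and the part of other cell types in the results was not tested. A figure legend of the study names the ATAC-seq cells of P300KO_TET2KO and TET2KO as LSK, that is lineage-negative, Sca1-positive and c-Kit-positive.

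Regions on which the comparisons turned are shown as the 201 bases around the strongest summit, read from the forward strand of mm10 (GRCm38, RefSeq sequence). Capitals mark words of 6 transcription factor families, searched on both strands and described after the sequences. The first is the region downstream of Bcl2 that came nearest to a call by rank, at chr1:106517845-106518045. The next is the Bbc3 region with the lowest p in P300KO_TET2KO against TET2KO, at chr7:16296897-16297097. Then follow the Bbc3 region at chr7:16313091-16313291 and the Mcl1 region at chr3:95668101-95668301, the first peaked in all libraries of TET2KO and P300KO_TET2KO and absent from WT, the other peaked in all P300KO_TET2KO libraries and absent from WT and P300KO. The last are the promoter windows of Bcl2l1, the highest ranked of the 10, at chr2:152831336-152831536, and of Bcl2, the lowest ranked, at chr1:106714366-106714566.
Bcl2 downstream: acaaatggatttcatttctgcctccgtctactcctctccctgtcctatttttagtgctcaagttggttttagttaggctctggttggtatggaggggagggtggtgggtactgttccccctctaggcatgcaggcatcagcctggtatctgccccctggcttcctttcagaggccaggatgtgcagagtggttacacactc
Bbc3 upstream: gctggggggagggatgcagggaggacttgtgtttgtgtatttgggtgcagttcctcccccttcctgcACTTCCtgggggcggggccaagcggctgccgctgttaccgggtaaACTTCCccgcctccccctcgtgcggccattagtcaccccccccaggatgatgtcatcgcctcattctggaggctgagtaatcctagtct
Bbc3 intragenic: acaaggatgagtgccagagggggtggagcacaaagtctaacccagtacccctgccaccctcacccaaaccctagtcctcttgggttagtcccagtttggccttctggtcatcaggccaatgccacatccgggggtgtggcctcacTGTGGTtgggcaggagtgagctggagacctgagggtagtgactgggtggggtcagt
Mcl1 downstream: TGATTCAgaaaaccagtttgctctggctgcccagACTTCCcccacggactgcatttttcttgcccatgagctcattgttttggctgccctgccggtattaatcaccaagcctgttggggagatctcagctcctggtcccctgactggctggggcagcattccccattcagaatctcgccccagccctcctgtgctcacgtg
Bcl2l1 promoter: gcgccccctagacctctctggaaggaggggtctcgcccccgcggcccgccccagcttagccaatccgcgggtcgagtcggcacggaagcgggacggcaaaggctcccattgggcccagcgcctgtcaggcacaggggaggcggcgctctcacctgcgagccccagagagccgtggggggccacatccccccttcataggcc
Bcl2 promoter: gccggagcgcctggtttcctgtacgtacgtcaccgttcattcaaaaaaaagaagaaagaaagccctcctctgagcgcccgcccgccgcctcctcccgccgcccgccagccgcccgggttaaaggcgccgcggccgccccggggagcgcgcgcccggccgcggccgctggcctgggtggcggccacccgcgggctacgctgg

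Such words describe the sequence and not binding. GGAAGT, a word of ETS factors, occurred in 56 of the 243 member windows (23.0%) and in 24.2% of the windows of all 296215 regions. TGTGGT, of RUNX factors, was found in 51 (20.99%, against 21.9%), and TGANTCA, of AP-1, in 19 (7.82%, against 7.63%). The FOXO word TGTTTAC was in 8 (3.29%, against 2.29%) and the cAMP response element TGACGTCA in 2 (0.823%, against 0.348%). AGATAA, of GATA factors, was in 14 (5.76%, against 8.96%), of which 10 lay in the 115 pro-survival and 4 in the 128 pro-death windows. The Bcl2 downstream window and both printed promoter windows hold 0 of the words. The windows of pro-death members held more G and C (55.0 ± 8.32%, mean ± SD over windows) than those of pro-survival members (48.9 ± 7.09%), and all regions averaged 50.3%.

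Most of the accessible chromatin around the family varied from library to library. A peak was present in all 16 libraries at 56 of the 243 regions (23.0%) and in a single library at 70 (28.8%), compared with 13.3% and 45.6% of all regions. By member, regions in all 16 libraries numbered 5 of 70 at Bcl2, 6 of 29 at Bcl2l1 and 8 of 16 at Mcl1 among the pro-survival genes. They numbered 3 of 30 at Bcl2l11, 6 of 18 at Bax, 6 of 20 at Bak1, 8 of 15 at Bbc3, 4 of 10 at Pmaip1, 4 of 19 at Bid and 6 of 16 at Bad. Bcl2, the longest of the genes, thus had the most regions and a low share of constant ones. Of its 70 regions, 51 lay in its introns away from start sites of other genes, and over all members 3 of 78 such regions but 17 of 26 regions at an own start site (within 3 kb) were present throughout. A further 53 regions lay within 3 kb of a start site of another gene, 14 of them among the 16 regions of Bad, and 81 lay in the flanks.

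Every member had a region at a start site of its own with a peak in all 16 libraries. Its strength was expressed as the rank percentile of its −log10 p in the library's own list, with 100 for the strongest peak. Over the 16 libraries the Bcl2l1 promoter (chr2:152830472-152831893) ranked from 98.4 to 99.8, with a median of 99.3. It was the only promoter of the 10 whose 16 values all lay above those of the next, Bid, which ranged from 94.3 to 98.1.

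The next 7 promoters formed a gradual order in which neighbours overlapped but the ends did not, since every Bid value lay above every Bak1, Pmaip1 and Bax value. Median percentiles were 96.1 for Bid, 95.4 for Mcl1, 95.1 for Bad, 95.1 for Bcl2l11, 93.0 for Bak1, 91.8 for Pmaip1 and 90.6 for Bax. The start-site region of Bbc3 (chr7:16313524-16314256) lay inside the gene, nearest the start of a retained-intron transcript, and had a median of 86.4 and a range from 84.2 to 89.2. The Bcl2 promoter (chr1:106713580-106714832) was lowest, with a median of 84.6 and a range from 80.4 to 88.1. The promoters of Bak1, Bid and Bad also lie within 3 kb of a start site of another gene.

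**Figure D1:**
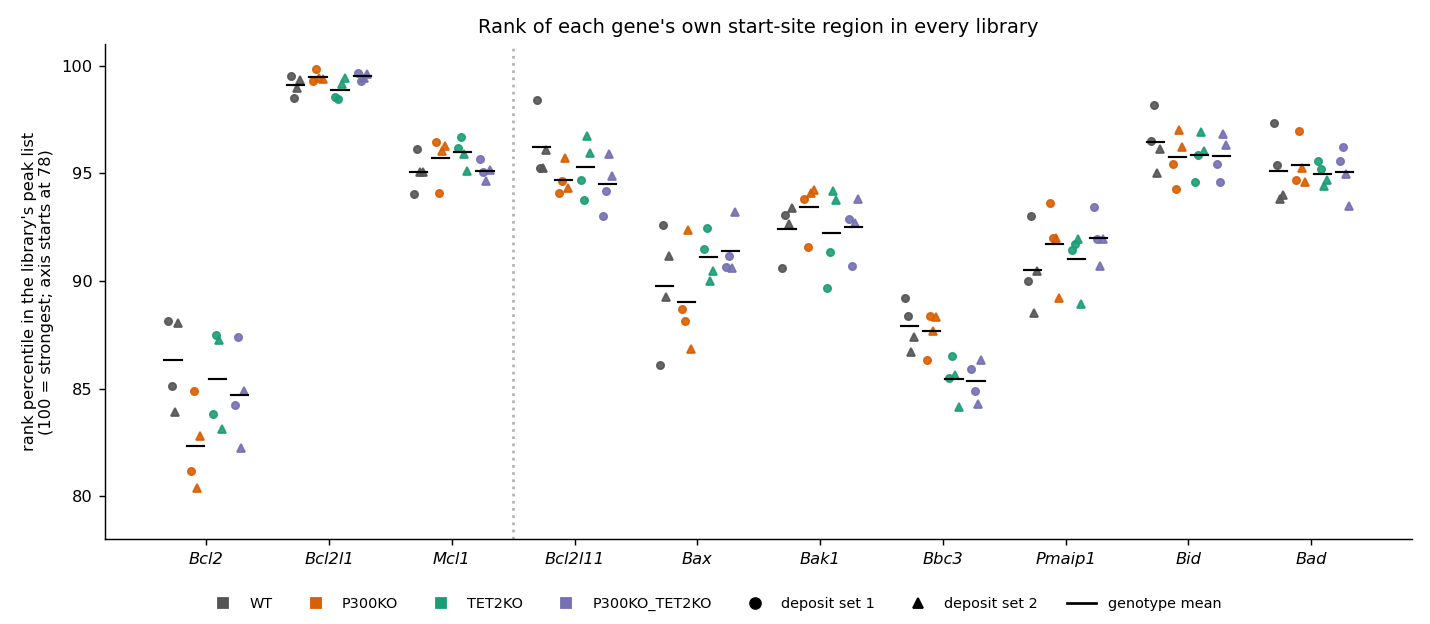
Rank percentile of the strongest start-site region of each member (y axis, 100 = strongest peak of the list, axis not starting at 0) in each of the 16 libraries, coloured by genotype, with circles for deposit set 1, triangles for set 2 and bars for genotype means. Bcl2l1 sits between 98.4 and 99.8 and Bcl2 between 80.4 and 88.1, and the genotypes overlap at most members.

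Ranks were compared between genotypes in the 39310 regions with a peak in every library. Each library's ranks were turned into normal scores, so that a difference of 1 is 1 SD of all shared regions, and limma was fitted with genotype and deposit set. Of the 56 shared member regions, 0 were called at an adjusted p under 0.05 in any of the 6 comparisons. The shares called over all shared regions were 0.132% for P300KO_TET2KO against TET2KO, 0.506% for P300KO against WT, 0.00509% for TET2KO against WT and 0.15% for P300KO_TET2KO against P300KO. Over all 16 libraries they were 2.58% for p300 loss in both Tet2 backgrounds and 0.784% for Tet2 loss in both p300 backgrounds.

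Unadjusted limma p-values under 0.05 were found at 4, 4, 4 and 6 of the 56 member regions in these 4 contrasts (7.14%, 7.14%, 7.14% and 10.7%) and at 8.45%, 15.1%, 10.3% and 9.27% of all shared regions. For p300 loss over both backgrounds they were found at 7 (12.5%, against 16.9% of all), and for Tet2 loss at 9 (16.1%, against 13.6%). The median difference of the pro-survival regions was 0.00963 for p300 loss and −0.0144 for Tet2 loss (n = 19), that of the pro-death regions −0.00264 and −0.0383 (n = 37), and that of all shared regions 0.00872 and 0.0088. No member region differed by limma in the effect of p300 loss between the Tet2 backgrounds (lowest adjusted p = 0.937). An unadjusted limma p under 0.05 was found at 3 of 56 regions (5.36%), against 5.21% of all shared regions. The same test called 0 of all 39310 shared regions (lowest limma adjusted p = 0.701), so 0 calls do not set the members apart.

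**Figure D2:**
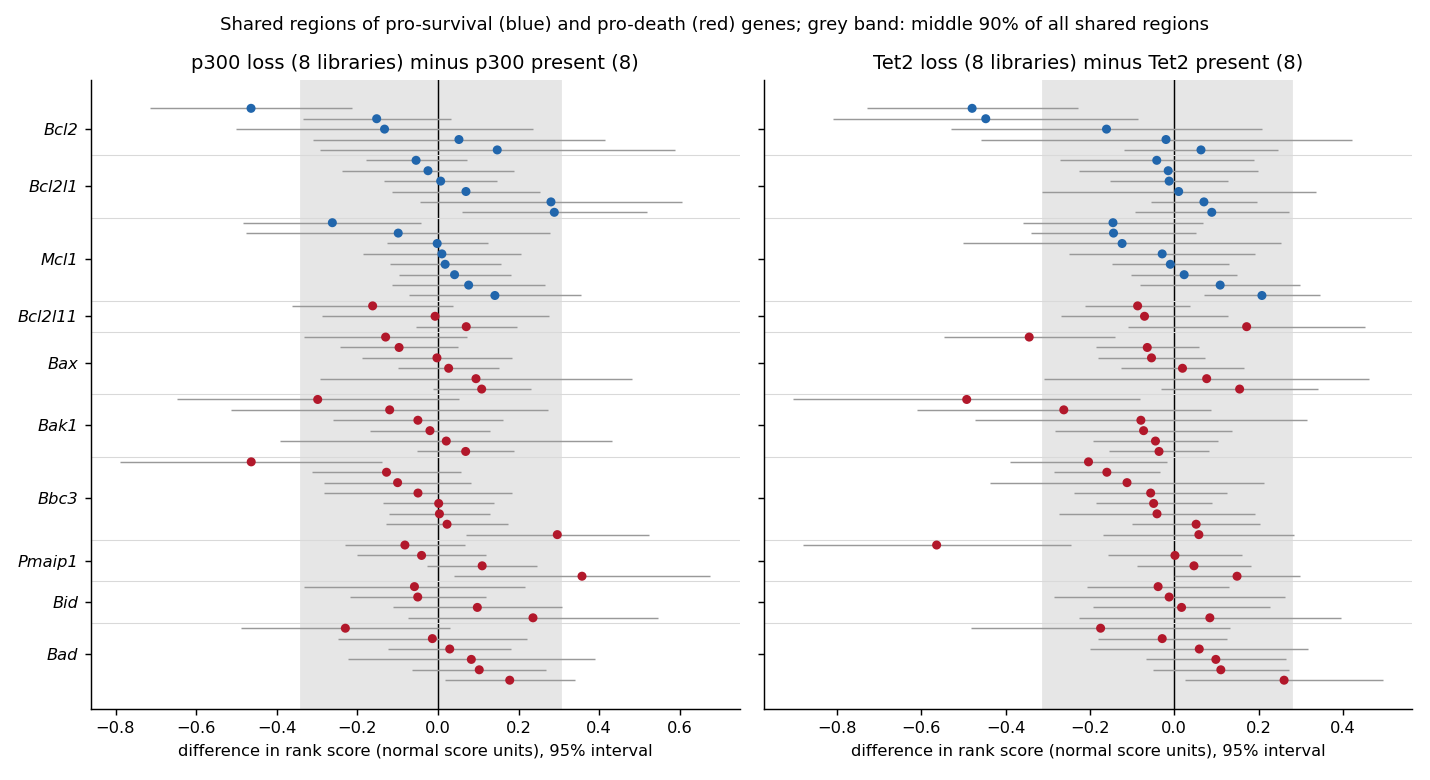
Difference in rank score (x axis, normal score units) with 95% intervals at the 56 shared member regions, grouped by gene (y axis), for p300 loss (left) and Tet2 loss (right), 8 libraries against 8, with pro-survival genes in blue and pro-death genes in red. The grey band holds the middle 90% of all 39310 shared regions, and 3 member regions lie outside it on the left and 5 on the right.

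None of the 10 own start-site regions was called. For p300 loss the 10 differences ran from −0.162 to 0.288 with a lowest adjusted p of 0.179 (limma), and for Tet2 loss from −0.16 to 0.155 with a lowest adjusted p of 0.25. The widest 95% intervals reached −0.361 and 0.518 for p300 loss and −0.286 and 0.341 for Tet2 loss. At the Bcl2l1 promoter, which drives the gene of Bcl-xL, the libraries ranked at 99.5, 98.5, 99.0 and 99.3 in WT and at 99.3, 99.8, 99.4 and 99.4 in P300KO. TET2KO libraries were at 98.6, 98.4, 99.1 and 99.4 and P300KO_TET2KO libraries at 99.6, 99.3, 99.4 and 99.6. Genotypes with and without p300 overlapped, and the difference for p300 loss was 0.288 (95% interval 0.0588 to 0.518, limma adjusted p = 0.179). It was −0.0656 when fold enrichment was ranked instead (adjusted p = 0.79), so its direction depended on the column.

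The start-site region of Bbc3, the gene of the p53 target Puma, ranked at 89.2, 88.4, 86.7 and 87.4 in WT and at 86.3, 88.4, 87.7 and 88.3 in P300KO. It ranked at 85.5, 86.5, 85.7 and 84.2 in TET2KO and at 85.9, 84.9, 84.3 and 86.3 in P300KO_TET2KO. All WT values lay above all values in TET2KO and in P300KO_TET2KO, and the overlap between libraries with and without Tet2 came from P300KO replicate 1. The difference for Tet2 loss was −0.16 (95% interval −0.286 to −0.0341, limma adjusted p = 0.25).

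The shared region nearest to a call was the Bcl2 region at chr1:106517597-106518303, in intergenic sequence downstream of the gene, which straddles the 20 kb limit of the window and is left out at 10 kb. Its nearest start site was that of the antisense gene D630008O14Rik, 23993 bp away. In replicates 1 to 4 its percentiles were 81.7, 84.2, 75.2 and 71.0 in WT, 74.9, 56.5, 71.7 and 70.9 in P300KO and 73.5, 64.3, 69.1 and 69.8 in TET2KO. In P300KO_TET2KO they were 63.5, 53.4, 62.6 and 58.9. Libraries lacking both factors lay below all WT and all TET2KO libraries, and P300KO overlapped both. The difference was −0.464 for p300 loss (95% interval −0.714 to −0.214, limma adjusted p = 0.0511) and −0.48 for Tet2 loss (−0.73 to −0.23, adjusted p = 0.0764). With a replicate block in place of the deposit set, the adjusted p for p300 loss was 0.0381, and 1.91% of all shared regions were called. Without WT replicate 4 the adjusted p was 0.0342 for p300 loss and 0.0479 for Tet2 loss, and without P300KO replicate 2 it was 0.0371 for Tet2 loss. In these fits 1.96% of all shared regions were called for p300 loss, and 0.753% and 0.542% for Tet2 loss. Over all 24 alternatives it ran from 0.0342 to 0.43 for p300 loss and from 0.0371 to 0.443 for Tet2 loss, and the difference was negative in each.

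A further 3 shared regions were named by their p and were not called either. The Bbc3 region at chr7:16296797-16297231, intergenic upstream of the gene, ranked at 79.8, 60.0, 71.7 and 73.4 in WT and at 65.3, 50.3, 74.8 and 66.7 in P300KO. It ranked at 65.0, 73.2, 75.7 and 74.7 in TET2KO and at 49.5, 49.3, 66.3 and 69.98 in P300KO_TET2KO. The P300KO_TET2KO libraries were lowest on average. They overlapped TET2KO across deposit sets and lay below both TET2KO libraries within each set, with a difference of −0.686 (95% interval −1.15 to −0.227, limma adjusted p = 0.31). Over both Tet2 backgrounds p300 loss gave −0.463 (limma adjusted p = 0.127).

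The region in the Bad window at chr19:6933315-6934552 is the promoter of Kcnk4, a potassium channel gene, and not that of Bad. Its percentiles were 64.1, 47.7, 74.8 and 69.7 in TET2KO and 44.9, 49.2, 60.2 and 65.8 in P300KO_TET2KO, with overlap (difference −0.497, 95% interval −0.864 to −0.131, limma adjusted p = 0.372). WT libraries ranked from 51.3 to 65.1 and P300KO libraries from 41.1 to 68.6.

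Downstream of Pmaip1, the gene of the BH3-only protein Noxa, the region at chr18:66467641-66468367 ranked at 75.7, 81.0, 74.4 and 77.2 in WT and at 74.9, 86.5, 81.9 and 83.8 in P300KO. It ranked at 64.5, 44.0, 76.0 and 71.0 in TET2KO and at 67.6, 70.7, 77.1 and 75.3 in P300KO_TET2KO. Libraries without Tet2 were lower on average, with overlap, by −0.564 (95% interval −0.882 to −0.246, limma adjusted p = 0.101). Upstream of the same gene, a region at chr18:66447578-66448351, named after its values were seen, had a peak in 12 libraries and so entered a single alternative, in which regions needed 12 of 16 libraries and absent peaks took the lowest score. Its percentiles were 51.3, 65.98 and 61.7 in WT replicates 2 to 4, and 57.8 and 66.3 in P300KO replicates 3 and 4, with no peak in the others. TET2KO libraries were at 39.7, 37.5, 68.5 and 69.4, and P300KO_TET2KO replicates 2 to 4 at 23.3, 54.9 and 57.5. The absent peaks and the lowest values were in deposit set 1, and the difference for p300 loss was −0.662 (limma adjusted p = 0.0446 over 73277 regions, of which 2.05% were called).

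**Figure D3:**
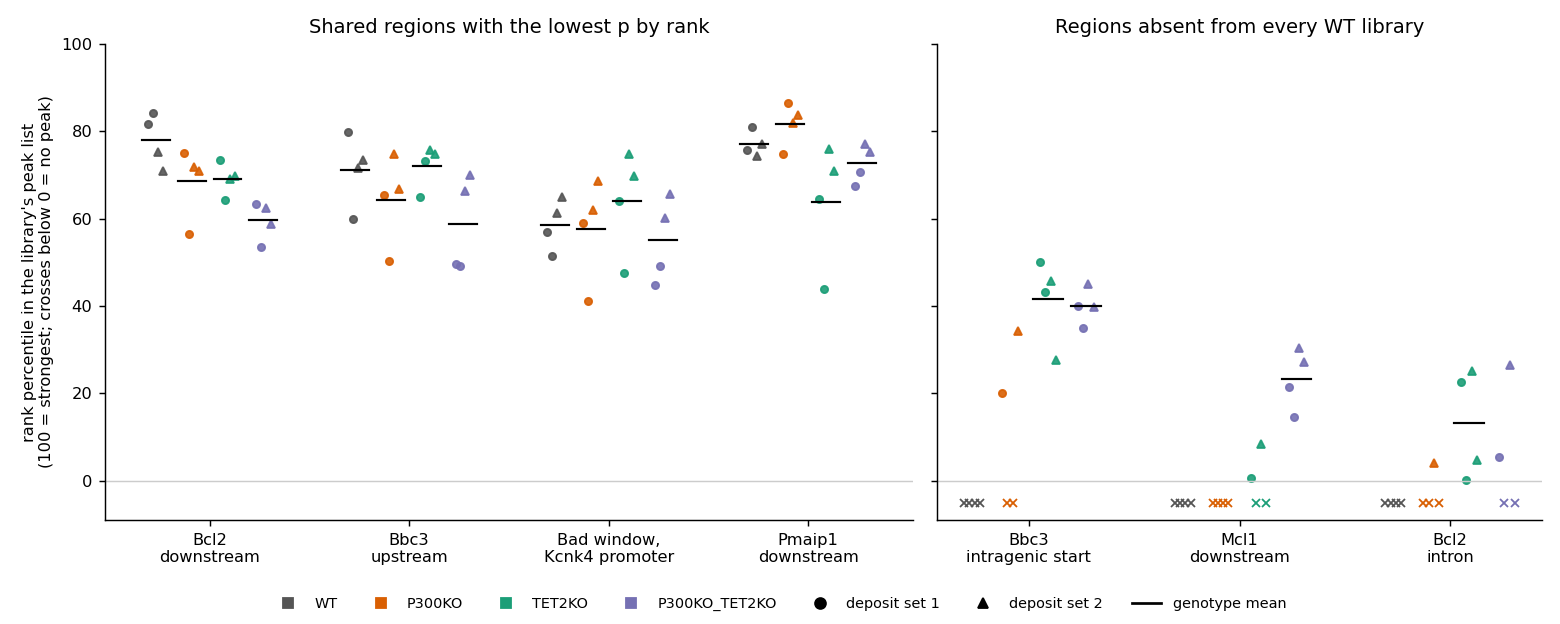
Rank percentile (y axis, 100 = strongest peak of the list, crosses below 0 for no peak) of 4 shared member regions with the lowest p (left) and of 3 regions absent from every WT library (right), by library, with circles for deposit set 1 and triangles for set 2. The P300KO_TET2KO libraries lie between 53.4 and 63.5 at the Bcl2 downstream region, and the Bbc3 intragenic region has a peak in all 8 libraries without Tet2.

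A few member regions were present in all libraries of one genotype and in none of another. In TET2KO against WT, 2 of the 218 member regions with a peak in either group were gained, and 0.017% of all such regions were. In P300KO_TET2KO against P300KO, 1 of 186 was gained, against 0.0994% of all. Gained regions numbered 0 of 180 in P300KO_TET2KO against TET2KO (0.0938% of all) and 0 of 217 in P300KO against WT (0.0154%). Lost regions numbered 0 in each contrast, where the shares of all regions were 0.0201% for P300KO_TET2KO against TET2KO, 0.0122% for P300KO against WT, 0.00849% for TET2KO against WT and 0.0469% for P300KO_TET2KO against P300KO. Counts this small were not tested, and 0 member regions met the rule in any of these contrasts when only the strongest 50000 peaks of each list were used.

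The gained Bbc3 region (chr7:16313082-16313341) lay in an intron, 305 bp before the start of the retained-intron transcript, and its window above holds 1 TGTGGT word. It had no peak in WT. Percentiles were 19.97 and 34.3 in P300KO replicates 1 and 4, with no peak in replicates 2 and 3. They were 50.04, 43.3, 45.8 and 27.5 in TET2KO and 40.0, 35.0, 44.9 and 39.9 in P300KO_TET2KO. All 8 libraries without Tet2 had the peak, as did 2 of the 8 with Tet2.

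The gained Mcl1 region (chr3:95668106-95668361) was intergenic, 9377 bp past the start of the gene and 8917 bp from a start site of Adamtsl4, the nearest. Its window holds a TGANTCA and a GGAAGT word. It had no peak in WT or P300KO. In TET2KO it had percentiles of 0.575 and 8.41 in replicates 1 and 3, and in P300KO_TET2KO of 21.3, 14.5, 30.3 and 27.1. The gained Bcl2 region (chr1:106553826-106554648) lay in an intron, with no peak in WT and percentiles of 22.7, 0.22, 25.2 and 4.73 in TET2KO. A single P300KO library had it at 4.03 and P300KO_TET2KO replicates 1 and 3 at 5.53 and 26.5. The values at Mcl1 and Bcl2 were thus all among the weaker peaks of their lists, whereas those at Bbc3 reached the middle.

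When 3 libraries were enough for presence and 1 was tolerated on the other side, P300KO_TET2KO had gained 7 member regions over TET2KO (3.89% of 180, against 1.86% of all regions) and lost 1 (0.556%, against 0.82%). The gained regions were spread over 6 genes, with 2 at Bak1 and 1 each at Mcl1, Bcl2l11, Bax, Pmaip1 and Bad, and the lost region was at Bcl2. Those of Mcl1, Bax and Bad lay within 3 kb of a start site of another gene, Adamtsl4, Dhdh and Kcnk4. By the same rule P300KO had gained 3 and lost 1 over WT (1.38% and 0.461% of 217, against 0.871% and 0.687% of all). TET2KO had gained 3 and lost 2 over WT (1.38% and 0.917% of 218, against 0.769% and 0.669%), and P300KO_TET2KO had gained 5 and lost 0 over P300KO (2.69% and 0% of 186, against 1.7% and 0.885%).

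Accessible regions were then counted for each member and library and compared by exact permutation. Of the 10 members, 0 passed after Benjamini-Hochberg adjustment over all 20247 protein-coding genes with a region, and 0 of all genes did so in any comparison. This was largely set by the design, since with the smallest p it allows, at least 11570 genes would have to pass together in a contrast and at least 625 in an effect over 16 libraries. At an unadjusted exact permutation p under 0.05, 0 members passed in each of the 4 contrasts, where 0.474% of all genes passed for P300KO_TET2KO against TET2KO, 0.286% for P300KO against WT, 0.375% for TET2KO against WT and 0.553% for P300KO_TET2KO against P300KO. These regroupings ignore deposit set. Within sets, Mcl1 was higher in every P300KO_TET2KO than in every TET2KO library and Bbc3 in every TET2KO than in every WT library, by 2 regions each (exact permutation p = 0.0556, the smallest of 36 arrangements). That p was reached by 1 of 10 members in each of these contrasts, against 3.45% and 1.92% of all genes. It was reached by 0 members in P300KO against WT (1.74% of all genes) and in P300KO_TET2KO against P300KO (2.41%). For p300 loss over both Tet2 backgrounds 0 members passed (5.09% of all genes), and for Tet2 loss over both p300 backgrounds 1 did, Bbc3 (4.69% of all genes). The effect of p300 loss did not differ between Tet2 backgrounds at any member by the exact permutation test (lowest unadjusted p = 0.0926, at Bid; 414 of 20247 genes had a p under 0.05 and 0 an adjusted one).

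Among the pro-survival genes, Mcl1 had 8, 8, 11 and 11 regions in the WT libraries and 11, 8, 12 and 9 in P300KO. It had 9, 8, 11 and 11 in TET2KO and 12, 11, 12 and 12 with both factors lost. The 4 libraries without both factors were at the top of the range and touched the others at 11 and 12. For p300 loss the difference was 1.25 regions (exact permutation p = 0.0926), and over all 26 alternatives it ran from 0.25 to 2.25 regions with exact permutation p-values from 0.00463 to 1. The p fell below 0.05 without P300KO replicate 2 (exact permutation p = 0.037, adjusted p = 0.723) and without P300KO replicate 4 (exact permutation p = 0.00463, adjusted p = 0.78), and the difference was 0.25 regions in deposit set 2 alone. For Tet2 loss the Mcl1 difference was 1 region (exact permutation p = 0.167). It passed unadjusted at a window of 10 kb and without promoters of other genes (0.75 regions and exact permutation p = 0.0278 in each) and with 50% of a region covered (1.88 regions, exact permutation p = 0.0417), and among the strongest 50000 peaks it was −0.375 regions. Bcl2 averaged 26.8 ± 10.4 regions in WT and 24.8 ± 9.67 in P300KO, 25.5 ± 8.81 in TET2KO and 26 ± 5.83 in P300KO_TET2KO (mean ± SD, n = 4), and its counts ranged from 11 to 35. Bcl2l1 had 12.5 ± 1.91, 12.2 ± 3.1, 12.5 ± 2.65 and 11.5 ± 2.38 regions in the same order. At Bcl2 and Bcl2l1 the genotype means thus lay within 1 SD of each other, and deposit set moved them more (19.2 regions in set 1 and 32.2 in set 2 at Bcl2).

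Of the pore formers, Bax had 11.0 ± 0.816, 11.0 ± 0.816, 10 ± 0.816 and 11 regions in WT, P300KO, TET2KO and P300KO_TET2KO, the last with 11 in each library. Bak1 had 8, 11, 12 and 14 regions in the WT libraries and 10, 11, 13 and 14 in P300KO. Its counts were 11, 11, 13 and 17 in TET2KO and 14, 10, 15 and 16 when both were lost. The genotypes overlapped, and the difference for Tet2 loss was 1.75 regions (exact permutation p = 0.0602). With a replicate block the exact permutation p was 0.0469 (adjusted p = 1), and among the strongest 50000 peaks the difference was 0 regions.

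Among the BH3-only genes, Bbc3 had 8, 10, 11 and 11 regions in the WT libraries and 12, 10, 11 and 12 in P300KO. TET2KO libraries had 11, 12, 13 and 12 and P300KO_TET2KO libraries 11, 12, 13 and 13. Counts of 12 or 13 were in 6 of 8 libraries without Tet2 and in 2 of 8 with it. The difference for Tet2 loss was 1.5 regions (exact permutation p = 0.0123, adjusted p = 0.956), and the gained intragenic region made up 0.75 of it. It was 1.5 regions in each deposit set alone (exact permutation p = 0.222 in set 1 and 0.0556 in set 2, where 0.0556 is the smallest that 36 arrangements give). Among the strongest 50000 peaks it was 0.375 regions (exact permutation p = 0.5). Bcl2l11 had between 6 and 16 regions, Pmaip1 between 4 and 10, Bid between 4 and 10 and Bad between 6 and 9, and their differences for p300 or Tet2 loss were between −0.5 and 0.75 regions with exact permutation p-values from 0.205 to 1.

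**Figure D4:**
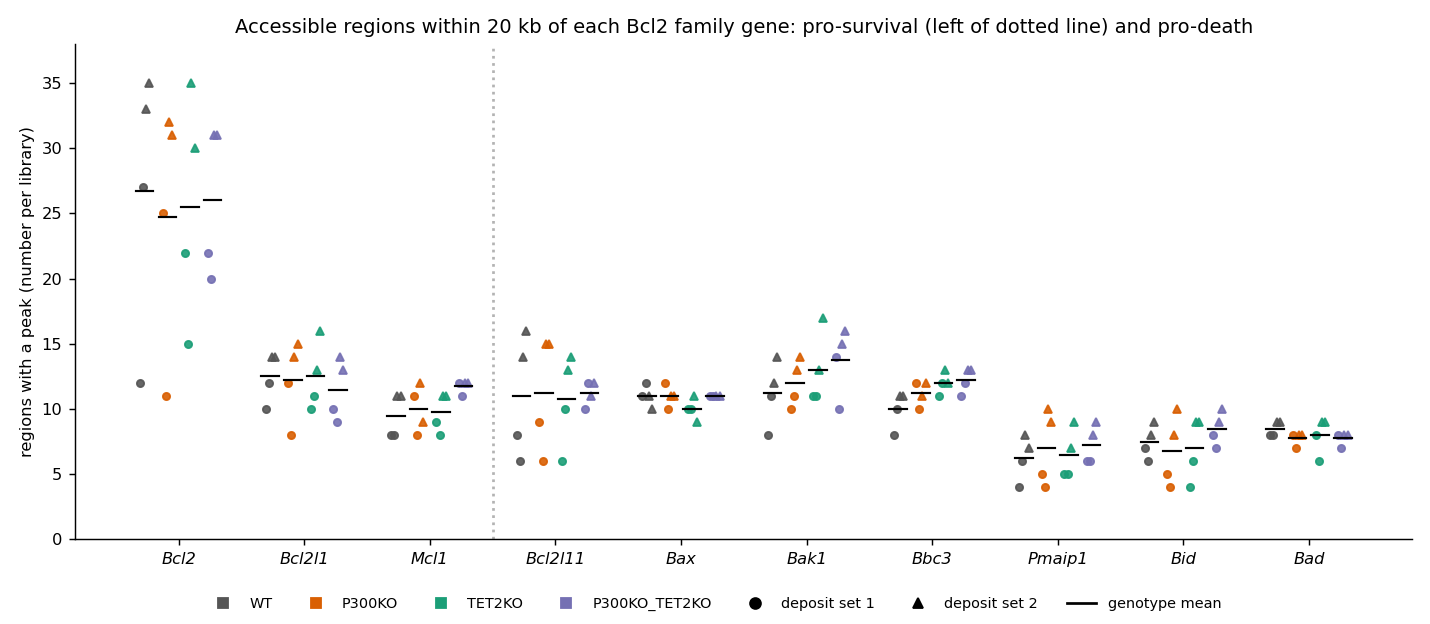
Number of regions with a peak within 20 kb of each member (y axis) in each of the 16 libraries, coloured by genotype, with circles for deposit set 1, triangles for set 2 and bars for genotype means. Counts at Bcl2 run from 11 to 35 with the set 2 libraries at the top, and at Bbc3 from 8 to 13.

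Pro-survival and pro-death genes were last set against each other. In each genotype a smaller share of pro-survival than of pro-death regions had a peak, namely 42.4 ± 11.95% and 51.2 ± 8.33% in WT, 40.9 ± 12.2% and 52.3 ± 9.94% in P300KO, 41.5 ± 10.6% and 52.5 ± 9.03% in TET2KO and 42.8 ± 7.43% and 56.1 ± 5.0% in P300KO_TET2KO (mean ± SD, n = 4). The pro-survival share was below the pro-death share in all 16 libraries, by 5.22 to 17.3 percentage points. Without Bcl2 and its many intermittent regions the mean shares were 49.9% and 53.0%. The classes also differed in site. Own introns away from start sites held 61 of 115 pro-survival and 17 of 128 pro-death regions. Own start sites held 5 and 21. The part of site in the gap was not tested.

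Between genotypes the gap differed by less than the spread between libraries. P300KO_TET2KO differed from TET2KO by −2.21 percentage points, P300KO from WT by −2.69, TET2KO from WT by −2.24 and P300KO_TET2KO from P300KO by −1.75, and the SD between libraries of the same genotype and deposit set was 5.06. Over 16 libraries p300 loss gave −2.45 points and Tet2 loss −2.0. Leaving out single libraries moved the 4 contrasts between −5.5 and 1.05 points. Among the strongest 50000 peaks the difference between P300KO_TET2KO and TET2KO was 1.46 points, in the other direction.

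**Figure D5:**
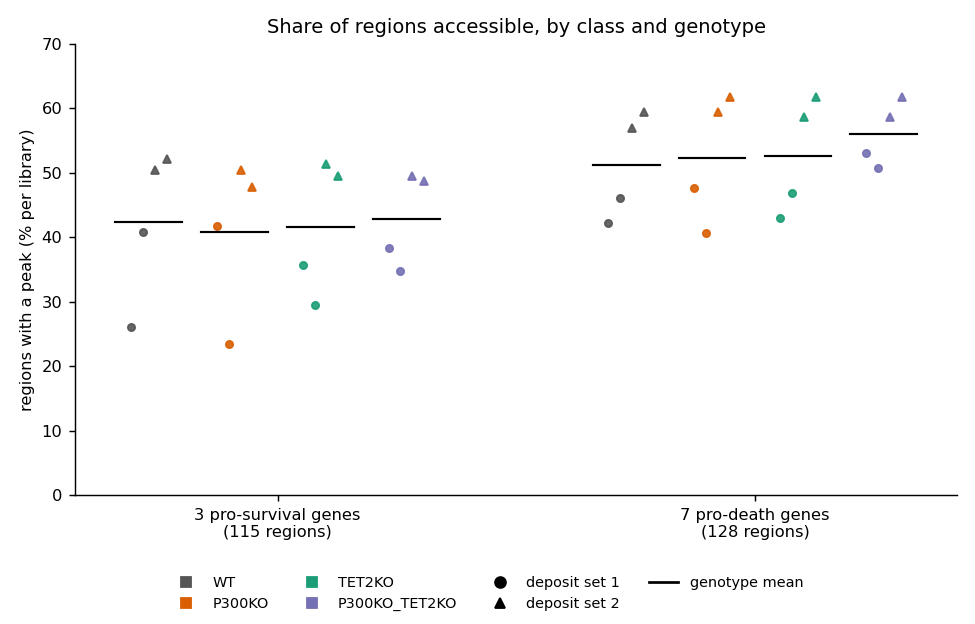
Share of the 115 pro-survival and 128 pro-death regions with a peak (y axis, percent) in each of the 16 libraries, coloured by genotype, with circles for deposit set 1, triangles for set 2 and bars for genotype means. The genotype means lie between 40.9% and 42.8% for pro-survival and between 51.2% and 56.1% for pro-death regions, and set 2 libraries lie above set 1 libraries in both classes.

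Of 24 further genes of the apoptosis pathway (other Bcl2 relatives, the apoptosome, caspases, their inhibitors and upstream regulators), 24 had regions, and 0 passed after an adjustment that the smallest possible p also limits. At an unadjusted exact permutation p under 0.05, 2 of the 24 had more regions with p300 loss and 0 had fewer, where 5.09% of all genes passed in either direction. These were Birc3, a member of the IAP family, with 1.12 more regions (exact permutation p = 0.0278), and Foxo3, a transcription factor that keeps HSPCs quiescent, with 2.62 more (exact permutation p = 0.0494). With Tet2 loss, where 4.69% of all genes passed, 1 had more and 0 had fewer, Bcl2a1d, a pro-survival relative, with 1 more region (exact permutation p = 0.0278). The other effect of Foxo3 and of Bcl2a1d had the same sign, with 3.62 more regions at Foxo3 for Tet2 loss (exact permutation p = 0.0571) and 1 more at Bcl2a1d for p300 loss (exact permutation p = 0.0556), so neither is set apart as a gene of 1 factor. Birc3 differed by −0.125 regions for Tet2 loss (exact permutation p = 1). Bcl2a1d has near-identical copies, so the assignment of its reads is uncertain. Birc3 averaged 6 ± 1.41 regions in WT and 7.5 ± 1.29 in P300KO (SD, n = 4), and 6.25 ± 0.957 in TET2KO against 7 in each P300KO_TET2KO library, and the genotypes overlapped.

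The 20 kb limit was compared on both sides, as a description. Of the 20 outermost regions inside it, 6 had a peak in all 16 libraries, and of the 20 next regions outside it 9 did. The regions just inside were present in a median of 7.5 libraries and those just outside in a median of 11.5.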

How the data were processed

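ATAC-seq peak lists of 16 libraries were used, 1 list for each. Per the labels and the study's methods, the authors trimmed paired reads with cutadapt 1.9.1, aligned them to mm10 with Bowtie2 2.2.6, followed the ENCODE ATAC-seq pipeline, and used MACS2 2.1.0 on each library alone. The deposited lists hold, for every summit, a fold value (the ratio of signal to local background in that library) and the authors' −log10 p and −log10 q, together with its positions. These values were ranked within a list and never compared between lists as signal. Ep300 and Tet2 deletion cannot be read from such lists, and the genotypes were taken as labelled.

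Several summits in 1 interval made a single peak, and intervals from the 16 lists that overlapped by 1 bp or more formed 1 region. A member's regions overlapped its gene body or 20 kb on either side (GENCODE M21), and start sites were taken within 3 kb. Ranks by −log10 p of the 39310 regions with a peak in all libraries were turned into normal scores and fitted with limma 3.58.1 (R 4.3.3) on genotype and deposit set, with Benjamini-Hochberg adjustment over all regions and a threshold of 0.05. Region counts of 20247 protein-coding genes were compared by two-sided exact permutation of the labels (70 regroupings for a contrast, with a smallest p of 0.0286, and 1296 arrangements within deposit set for an effect over 16 libraries). The 4 contrasts share libraries and are not independent. Replicates pooled mice of the same genotype, and p-values measure the spread between libraries. Tables were made in Python 3.11.15 (pandas 2.3.3, numpy 2.4.6), tests with scipy 1.17.1, sequences with pysam 0.24.0 and figures with matplotlib 3.10.9, and both tests were tested on simulated data. The lists carry no depth, so no counting interval is given.

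Same-numbered libraries of different genotypes deviated together from their genotype means (correlations from 0.167 to 0.489 over 24 pairs), as did libraries with other numbers in the same deposit set (0.189 to 0.475). Once deposit set was removed as well, the correlations ran from −0.282 to 0.0278 (median −0.141). Those of other numbers in the same set ran from −0.294 to 0.023 (median −0.0937). Removing a set mean itself lowers such correlations. Same-numbered libraries were thus no closer to each other than to others of their set. Both tests account for deposit set in the effects over 16 libraries.

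The members, gene lists, tests and alternatives were chosen with earlier results of these data known. Named were all 10 members, the own start-site region of each, the shared regions with the lowest p (3 for P300KO_TET2KO against TET2KO and 2 for each effect over 16 libraries), every region in 4 of 4 against 0 of 4 libraries, and pathway genes with an unadjusted p under 0.05. Sequences were printed only where the 201 base window held no exon. The alternatives were ranking by fold enrichment or in the whole list, no deposit set, a replicate block, regions in at least 12 libraries, each deposit set alone for ranks, only the strongest 50000 peaks or those with −log10 q from 2 up, windows of 10 and 50 kb, at least 50% of a region covered, leaving out promoters of other genes or Bcl2, other permutation schemes and leaving out each library. Each deposit set alone for counts and shares and leaving out each library for gained and lost regions were added after the data were seen.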

Additional observations from a re-analysis of the deposited data

Results flagged for a closer look

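In 100 groups of 4 libraries (region counts of the 10 members, percentiles of their start-site regions and of the named regions, and the gap between classes), 5 had a library far from the other 3, where chance alone flags about 1 in 20. The gap to the nearest library was set against the whole range of the group. Counts with 3 equal values and 1 other are always flagged by this rule, so the rate of 1 in 20 does not hold for them. Mcl1 had 11 regions in P300KO_TET2KO replicate 2 and 12 in the other 3 libraries. Bad had 7 regions in P300KO replicate 2 and 7 in P300KO_TET2KO replicate 2, with 8 in the other 3 libraries of each genotype, so each of these count flags rests on 1 region. The Bak1 start-site region ranked at 91.6 in P300KO replicate 2 and from 93.8 to 94.2 in the others. The Pmaip1 start-site region ranked at 88.9 in TET2KO replicate 4 and from 91.4 to 92.0 in the others.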

How the results depend on the processing

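Of the counts and shares that answer a comparison, 451 recomputed values moved by less than the spread between libraries. For counts this meant staying within 1.5 times. Another 33 moved further, and the cause was not tested. Of the 451, 307 were counts, and some of these could not have moved from 0. By region count, no gene could pass in the 4 contrasts with a replicate block (smallest exact permutation p = 0.125). The same held for contrasts permuted within deposit sets (0.0556) and for each deposit set alone (0.333 in contrasts, 0.0556 in effects). Among the 451 were 144 differences of pro-survival minus pro-death share, of which 12 turned sign, with a range from −5.5 to 1.46 points. By rank, 1 member region instead of 0 was called for p300 loss with a replicate block (the Bcl2 downstream region, where 1.91% of all shared regions were called against 2.58% in the main test) and with regions in at least 12 libraries (the Pmaip1 upstream region, 2.05%). Leaving out 1 library gave from 0 to 1 for p300 loss (1 without WT replicate 4, 1.96% of all) and from 0 to 1 for Tet2 loss (1 without WT replicate 4 or P300KO replicate 2, 0.753% and 0.542% of all against 0.784%), each the Bcl2 downstream region. The rank difference of the Bcl2l1 promoter for p300 loss was −0.0656 when fold enrichment was ranked, a turned sign.

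By region count and unadjusted exact permutation p, 1 member (Bbc3) passed for Tet2 loss. This became 0 with the strongest 50000 peaks (3.35% of all genes passed) and 0 in deposit set 1 or 2 alone, where the smallest p of 36 arrangements is 0.0556 and no gene could pass. It became 2 with a window of 10 kb, without promoters of other genes or with a replicate block, where 3.88%, 3.74% and 2.97% of all genes passed. It became 3 at a −log10 q of at least 2 or with 50% of a region covered, where 9.27% and 6.6% of all genes passed against 4.69% in the main test, and from 1 to 2 without 1 library, where Bak1 was added without WT replicate 2, TET2KO replicate 3 or P300KO_TET2KO replicate 2 (6.5%, 5.49% and 4.36% of all). For p300 loss the count was 1 (Bid) at a −log10 q of at least 2, where 8.79% of all genes passed, and from 0 to 2 without 1 library. Pmaip1 passed without WT replicate 2 (7.17% of all), Mcl1 and Bax without P300KO replicate 2 (6.12%), Mcl1 without P300KO replicate 4 (5.48%) and Bad, with fewer regions, without TET2KO replicate 2 (5.15%). In P300KO_TET2KO against TET2KO the count was 1 (Bax) with 50% covered (0.519% of all) and from 0 to 1 without 1 library (Bax, without TET2KO replicate 3, 0.993% of all), and in TET2KO against WT it was 1 (Bbc3) with a window of 10 kb (0.304% of all). The smallest p of 4 libraries against 4 is 0.0286, so a single contrast passes only at the most extreme of its 70 regroupings. For p300 loss the replicate block changed no call. In the 4 contrasts its smallest exact permutation p is 0.125, so no gene could pass there.

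Gained or lost regions numbered 8 in P300KO_TET2KO against TET2KO, 4 in P300KO against WT, 5 in TET2KO against WT and 5 in P300KO_TET2KO against P300KO when 3 of 4 against 1 of 4 libraries sufficed. The shares of all regions under that rule are given with the gained and lost regions above. Among the strongest 50000 peaks gained or lost regions numbered 0 in the last 2 contrasts, where 0.13% and 0.386% of all regions with a peak met the rule. Without 1 library they numbered from 0 to 1 (1 without TET2KO replicate 3), from 0 to 1 (1 without P300KO replicate 2), from 2 to 3 and from 1 to 3 (3 without P300KO_TET2KO replicate 2) in the same order. Of all regions with a peak, 0.315% met the rule without TET2KO replicate 3, 0.172% without P300KO replicate 2, from 0.0541% to 0.159% in TET2KO against WT and 0.29% without P300KO_TET2KO replicate 2. No read counts were used, so a lost peak and a shallow library cannot be told apart.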
